A study of Callosobruchus maculatus with 24 samples.

Results

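The 55 genes described here were abundant in the abdomens of male Callosobruchus maculatus, a seed beetle, and far lower in female abdomens and in heads and thoraces. They were chosen among 29812 genes by 4 limits on CPM, the counts per 1000000 counts of a library, where A is a gene's mean CPM over the 6 male abdomen libraries. A was at least 50 CPM, the mean in female abdomens was at most A/16 (6.25% of A), the median over male heads and thoraces was at most 2% of A, and the level in 1 library, virgin male head and thorax replicate 1, was below 0.64% of A. The first 2 limits were met by 395 genes and the first 3 by 351, so that the 4th set the 55 apart from 296 other male-limited genes. Levels in male abdomens, female abdomens and male heads and thoraces chose the genes, and are given as a description with no test.

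The libraries came from the strain South India and formed 8 groups of 3 libraries: mated and virgin male abdomens, mated and virgin female abdomens, mated and virgin male heads and thoraces, and mated and virgin female heads and thoraces. Library totals ran from 7805440 to 10171662 estimated counts, so that 1 CPM stands for about 7.81 to 10.2 counts. No source used here gives the mating regime, the beetles' age or how many were pooled. Whether replicates were separate cultures is not stated either, so a p-value covers the spread among these libraries alone, which may be technical. No pair of replicates differed by as little as sampling noise (lowest chi-square per degree of freedom 5.82). The files give IDs with no gene names, so no function can be given to a single ID, and the labelled sex and tissue could not be checked against known marker genes.

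In beetles, as in other insects, the male abdomen holds the testes, where sperm are made, and the accessory glands, which secrete seminal fluid. Seminal fluid proteins are passed to the female with the sperm, and in many insects they alter her egg laying and her readiness to remate. Transcripts of such organs are known for high levels in males and near absence in females. Which of these organs the 55 genes belong to was not measured. In whole abdomens, fewer cells of a type and less RNA per cell cannot be told apart.

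Together the 55 genes took 15.2% of all counts in male abdomens, on average over the 6 libraries. They made up 13.9% of the 395 male-limited genes in number and 54.3% of their summed CPM. Of the 10 most abundant genes of male abdomens 5 were among the 55, and of the top 20, 10. A ranged from 65.4 to 34839 CPM with a median of 676 CPM, against a median of 137 CPM and a highest value of 17833 CPM in the 296 others. The 5 genes above 10000 CPM held 57.8% of the sum of the 55 and 8.77% of the library, and the 10 most abundant held 74.1% of the sum.

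TR71873|c3_g2 was the most abundant gene of male abdomens, with 34977, 33093 and 37989 CPM in mated males and 36166, 34042 and 32770 CPM in virgin males. The groups overlapped, and the coefficient of variation over the 6 libraries was 5.69%. TR15993|c3_g8 followed with 17437, 15172 and 18162 CPM in mated males and 17385, 15484 and 15238 CPM in virgin males. TR42691|c2_g3 had 15480, 15227 and 17303 CPM in mated males and 15680, 14119 and 13962 CPM in virgin males. In both of these genes mated replicate 3 was the highest of the 6 libraries, and the groups overlapped. TR20043|c1_g1 averaged 10742 ± 857 CPM in mated and 10485 ± 189 CPM in virgin males (SD, n = 3 each). TR64737|c0_g2 averaged 11014 ± 716 CPM in mated and 9918 ± 961 CPM in virgin males (SD, n = 3 each), again with overlap. The next gene in order, TR24206|c7_g1, lay at 5889 CPM, well below this leading set.

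**Figure D1:**
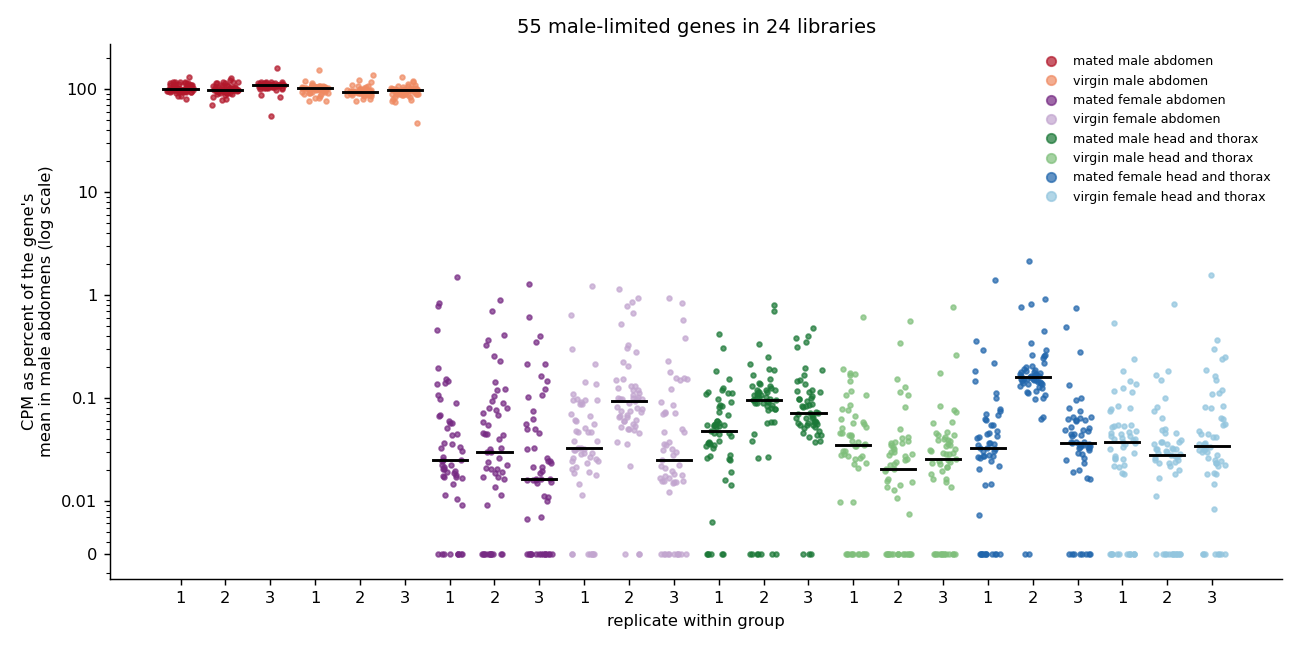
Level of each of the 55 genes (points) in each of the 24 libraries as a percent of the gene's mean CPM in male abdomens, on a log axis with 0 drawn at the foot; black bars are library medians and colours are groups. The points lie around 100% in the 6 male abdomens and mostly below 0.2% in the other 18 libraries, where virgin female abdomen replicate 2 and mated female head and thorax replicate 2 have the highest medians of their groups, 0.0939% and 0.161%.

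In male abdomens the levels varied little from library to library. The coefficient of variation over the 6 libraries had a median of 9.59% and was under 10% in 30 of the 55 genes, beside a median of 8.56% over the 2973 genes with at least 50 CPM there and 15.2% in the 296 other male-limited genes. The steadiest were TR51492|c0_g1, at 1105, 1075 and 1130 CPM in mated and 1121, 1039 and 1065 CPM in virgin males (3.24%), and TR56966|c6_g1 (3.39%). TR70823|c0_g2 varied most (45.4%): it had 439, 267 and 183 CPM in mated males and 507, 457 and 155 CPM in virgin males. The libraries numbered 3 were the lowest in both groups, and the groups overlapped throughout. TR38092|c0_g1 came next (32.3%), with 74.4, 52.3 and 105.9 CPM in mated males and 50.5, 66.4 and 50.9 CPM in virgin males. Both genes lay in the lower part of the range of levels.

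Virgin male head and thorax replicate 1 split the male-limited genes into separate clusters of level. Of the 55 genes, 54 stood below 0.2% of A in this library, 12 of them at 0, and their median was 0.0351%. The 296 others had a median of 6.21% of A there, with quartiles at 5.42% and 7.63%, and 287 of them stood at 2% or more. The limit thus cut where few genes lay. Just inside were TR52424|c2_g1 at 0.605% of A, which rests on 7 counts, and TR38092|c0_g1 at 0.191%. Just outside were TR49048|c2_g2 at 0.684% and TR52424|c1_g1 at 0.849%. TR52424|c2_g1 and TR52424|c1_g1, IDs of the same assembly component, thus fell on opposite sides of the limit.

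**Figure D2:**
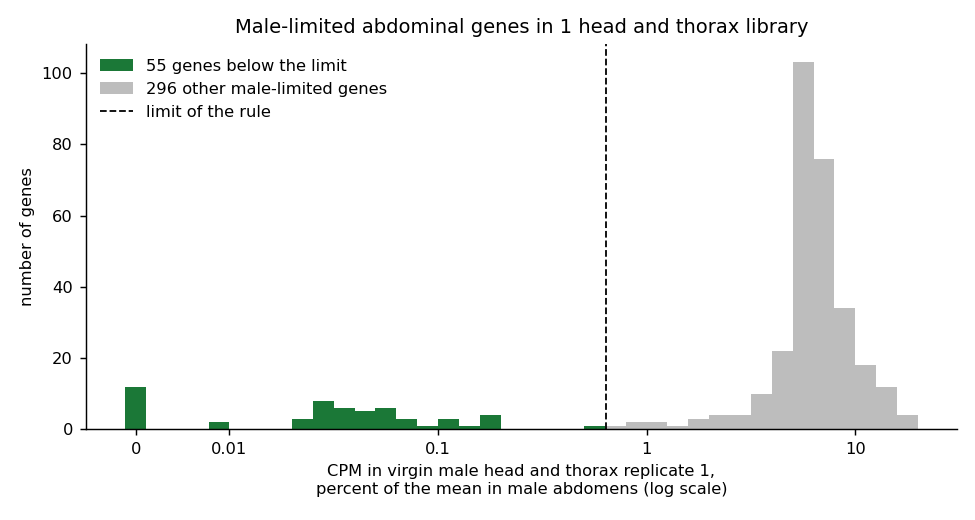
Number of genes (vertical axis) by CPM in virgin male head and thorax replicate 1 as a percent of the mean in male abdomens (horizontal log axis, 0 drawn at the left), for the 351 genes that met the first 3 limits. The 55 genes below the dashed limit of 0.64% have a median of 0.0351% and the 296 others a median of 6.21%.

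In the other 5 male head and thorax libraries the sets were closer. The 55 genes, which were not free of traces, had a median of 0.0480%, 0.0959% and 0.0703% of A in mated replicates 1, 2 and 3, and the 296 others had 0.339%, 0.357% and 0.0852%. In virgin replicates 2 and 3 the 55 had 0.0203% and 0.0252%, and the others 0.0221% and 0.561%. The median of the 55 was thus lower than that of the others in each of these libraries, by little in mated replicate 3 and virgin replicate 2. In virgin replicate 2, where 17 of the 55 genes had no count, so small a difference is not resolved. A single count is also a larger percent of A in a gene of lower A, and the others had the lower median A. Summed over the 55 genes, the level was 60.7, 154 and 105 CPM in mated and 59.6, 36.2 and 42.1 CPM in virgin male heads and thoraces. The choice of genes used these libraries, so this difference between mated and virgin males was not tested. The median over these libraries was at most 0.380% of A, in TR52424|c2_g1, far from its limit of 2%, and no gene was kept out by that limit alone.

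Of the other limits, that on A came closest to the genes it kept. The lowest A were those of TR12189|c1_g3 (65.4 CPM) and TR38092|c0_g1 (66.7 CPM), and the closest genes outside were TR69691|c4_g2 (48.1 CPM) and TR69691|c3_g3 (47.9 CPM). In female abdomens the highest ratios were 0.830% of A in TR40500|c0_g1 and 0.794% in TR38092|c0_g1. The 7 genes kept out by the female limit alone began at 20.7% of A in TR71139|c9_g4 and 39.5% in TR52501|c0_g1. No gene that met the other 3 limits stood between 0.830% and 20.7%.

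Outside male abdomens the 55 genes were present as traces that followed their level in male abdomens. In female heads and thoraces, which were not used to choose the genes, the mean was 0.0576% of A in the median gene and at most 0.563%, in TR38092|c0_g1. Across the 55 genes the Spearman correlation of A with the mean in female heads and thoraces was 0.872, and with the mean in female abdomens 0.752, as a description of genes that share libraries and depth. Levels in female abdomens and in male heads and thoraces were capped relative to A by the choice of genes, so they give no independent support. Within a library the ratio to A was alike for most of the more abundant genes. Of the 23 genes with A of at least 1000 CPM, 17 to 22 lay within 2-fold of their median ratio in each female head and thorax library. The same held for 19 to 22 in the male head and thorax libraries other than virgin replicate 1, and for 15 to 22 in female abdomens. The rest could lie far off: in mated female abdomen replicate 2 the 23 genes ran from 0% to 0.229% of A around a median of 0.0208%. These traces rest on few counts: the median gene had 27 counts over the 6 female abdomens together. What gave rise to them was not tested.

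Some libraries held more of the traces than others. The summed level of the 55 genes was 49.1, 243 and 55.2 CPM in mated female heads and thoraces and 58.6, 43.7 and 53.3 CPM in virgin ones. Mated replicate 2 stood apart, and 46 of the 55 genes had their highest value of the 6 female head and thorax libraries there. TR71873|c3_g2 had 9.26, 56.5 and 9.10 CPM in mated and 12.3, 8.06 and 10.5 CPM in virgin female heads and thoraces. In female abdomens the sum was 61.9, 62.9 and 55.9 CPM in mated and 58.8, 127 and 55.6 CPM in virgin beetles. There virgin replicate 2 was the highest of the virgin libraries for 42 of the 55 genes. The 296 other male-limited genes had medians of 0.224% of A in mated female head and thorax replicate 2 and 0.132% in virgin female abdomen replicate 2, the highest of their body part in females. Their summed level, which a few genes can set, was 747 CPM in mated female head and thorax replicate 2, beside 551 to 724 CPM in the other female head and thorax libraries. In virgin female abdomen replicate 2 their sum was 502 CPM, within the 396 to 547 CPM of the other female abdomens. The part of these libraries in each comparison of females is given beside it.

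**Figure D3:**
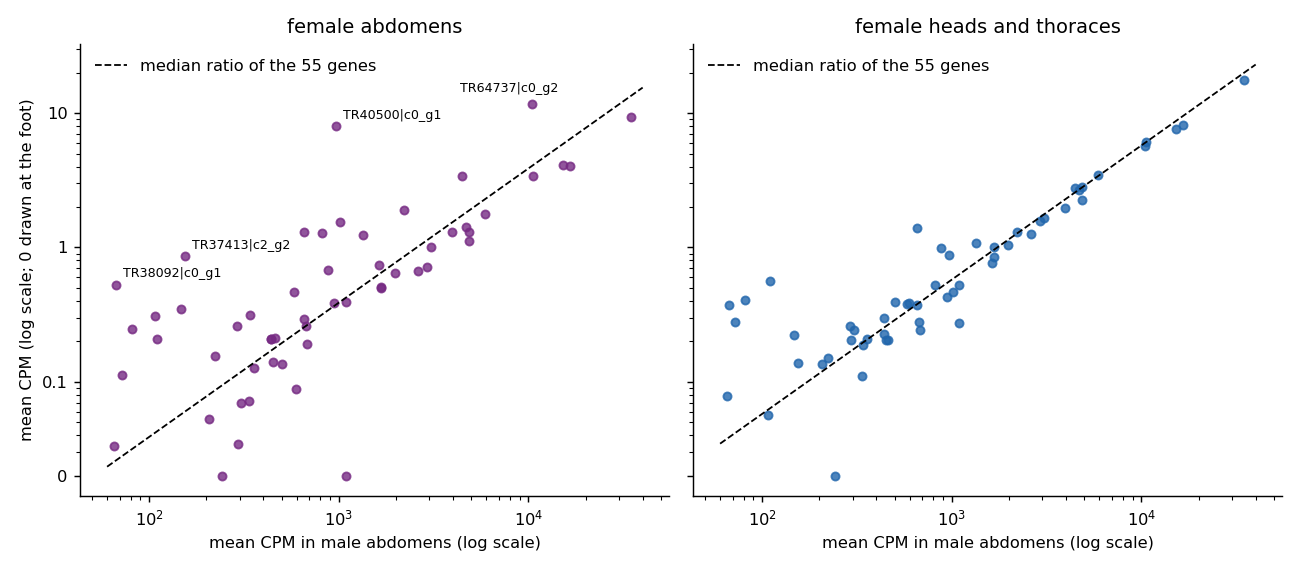
Mean CPM of each of the 55 genes in female abdomens (left) and in female heads and thoraces (right) against its mean CPM in male abdomens, both axes log, with 0 drawn at the foot; the dashed line is the median ratio of the 55 genes. Most points follow the line, and in female abdomens TR40500|c0_g1 (8.03 CPM), TR64737|c0_g2 (11.6 CPM), TR37413|c2_g2 and TR38092|c0_g1 lie above it.

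A few genes stood above the common trace in female abdomens. TR40500|c0_g1 had 7.57, 6.66 and 5.88 CPM in mated and 11.8, 8.17 and 8.06 CPM in virgin females, from 55 to 112 counts a library. All 3 virgin libraries were above all 3 mated ones, but the difference did not pass the test (log2 fold change -0.35, SE 0.145, edgeR quasi-likelihood test, adjusted p = 0.137). In female heads and thoraces the same gene was far lower, at 0.855 ± 0.614 CPM in mated and 0.911 ± 0.597 CPM in virgin libraries (SD, n = 3 each). It was 1 of 5 genes whose ratio to A was at least 3 times the median of the abundant genes in all 6 female abdomens, a count made after the values were seen. The others were TR7355|c17_g4 at 0.199% of A, TR37413|c2_g2 at 0.557%, TR52424|c2_g1 at 0.236% and TR38092|c0_g1 at 0.794%. In female heads and thoraces these genes stood, in the same order, at 0.213%, 0.0888%, 0.152% and 0.563% of A, from few counts. The median gene stood at 0.0576% there, so the excess was not particular to female abdomens in all of them. At the other end, TR6663|c0_g1 and TR6663|c0_g5 had no count in any female abdomen. With a floor of 3 counts over the 6 libraries, which covers counting error only, they were at least 21175-fold and 4691-fold higher in male than in female abdomens by the counts assigned to them. The floor does not cover the split of reads among IDs of a component. TR6663|c0_g4 and TR6663|c0_g3, not among the 55, had 0.308 and 0.277 CPM in female abdomens.

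In male abdomens none of the 55 genes passed the test between mated and virgin beetles. All 55 were tested among 14563 genes with edgeR's quasi-likelihood test (p-values adjusted by Benjamini and Hochberg's method over all genes tested, threshold 0.05). Of the 55, 0 rose and 0 fell, where 2.77% of all genes tested were called (1.48% higher and 1.3% lower). The spread was estimated over male and female abdomens together, and many of the 55 had few counts in females. The edgeR calls among them are therefore not a like comparison with the share of all genes. At an unadjusted p under 0.05, 8 passed, 5 higher and 3 lower in mated males, where 17.5% of all genes tested passed (6.5% higher and 11% lower). DESeq2 called 6, 3 higher and 3 lower, beside 10.3% of the genes to which it gave an adjusted p. Limma-voom called 5, 3 higher and 2 lower, beside 2.68% of all genes tested. The log2 fold changes, mated over virgin, ran from -0.62 to 0.44, and 38 of 55 were positive. Their median was 0.06, beside -0.06 over all genes tested. In the 296 other male-limited genes the median was -0.21, 39 were positive, and 1 rose and 1 fell. A difference between these sets was not tested. The 55 genes took 15.4%, 14.9% and 16.6% of the library in mated males and 15.4%, 14.4% and 14.4% in virgin males. The means were 15.6 ± 0.871% in mated and 14.7 ± 0.585% in virgin males (SD, n = 3 each), a ratio of 1.06, and the groups overlapped.

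**Figure D4:**
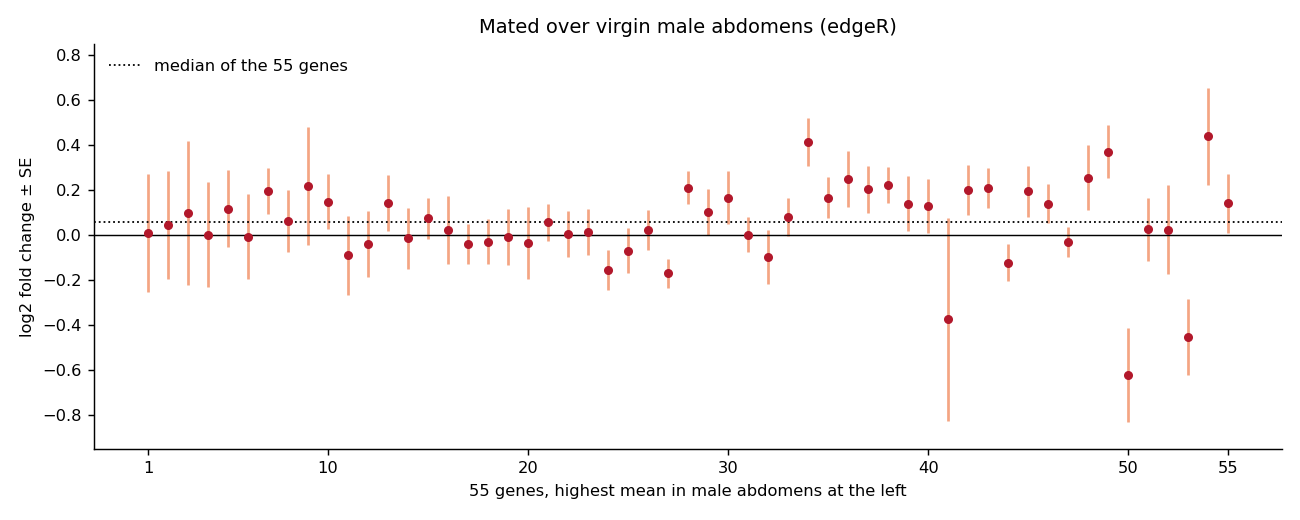
Log2 fold change (± SE, edgeR, with the spread estimated over male and female abdomens) of mated over virgin male abdomens for each of the 55 genes, ordered from the highest mean level at the left to the lowest at the right; the dotted line is their median of 0.06. The values run from -0.62 to 0.44 and none passed the adjusted threshold.

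The lowest adjusted p in male abdomens was that of TR41652|c0_g1, which had 553, 639 and 545 CPM in mated and 487, 382 and 404 CPM in virgin males. All mated libraries were above all virgin ones (log2 fold change 0.41, SE 0.107, edgeR adjusted p = 0.075). TR52424|c2_g1 also did not overlap, with 163, 171 and 170 CPM in mated and 133, 118 and 129 CPM in virgin males (log2 0.37, SE 0.117, edgeR adjusted p = 0.129). TR54130|c0_g3 lay on the other side, with 94.2, 77.3 and 93.0 CPM in mated and 132, 136 and 131 CPM in virgin males (log2 -0.62, SE 0.208, edgeR adjusted p = 0.169). These 3 genes were picked after their values were seen. In all, 10 of the 55 genes were higher and 4 lower in every mated than in every virgin library, 14 of 55, where 19.8% of all genes tested did not overlap (9.76% higher and 10.1% lower). The 5 most abundant genes were not among them, and the fitted log2 fold change of TR71873|c3_g2 was 0.01 (SE 0.264, edgeR adjusted p = 1). That SE is not the spread among male abdomens alone, over which the coefficient of variation of this gene was 5.69%.

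In female abdomens 1 of the 55 genes rose and 1 fell after mating, and 53 did not pass the test, where 14.5% of all genes tested were called (8.18% higher and 6.28% lower). The low-count filter ran over all 12 abdomen libraries, so genes with few counts in females passed it through their level in males. With the 6 female abdomens alone, 15 of the 55 passed it. Calls among the 55 are therefore not a like comparison with the share of all genes. At an unadjusted p under 0.05, 7 passed, 1 higher and 6 lower, where 28.4% of all genes tested passed (15.2% higher and 13.2% lower). DESeq2 called 10, 2 higher and 8 lower, beside 26.5% of its genes, and limma-voom called 1 beside 18.8%. TR64737|c0_g2 was higher in mated females, with 14.4, 14.8 and 17.0 CPM against 4.85, 11.2 and 7.55 CPM in virgin females. The groups did not overlap, and each library held 46 to 159 counts of it (log2 fold change 1.09, SE 0.235, edgeR adjusted p = 0.0125). In male abdomens this gene lay at 10466 CPM, so that its mean level in mated females, 15.4 CPM, was still far below that of males. Over 16 alternatives its adjusted p ran from 3.24e-05 to 0.142, and it missed the threshold once, when all 24 libraries were fitted together. Without virgin female abdomen replicate 2, the female abdomen with the most traces, its log2 fold change was 1.43 (adjusted p = 0.00632). In female heads and thoraces the gene had 2.85, 16.8 and 4.66 CPM in mated and 4.42, 3.05 and 2.31 CPM in virgin libraries, with overlap and mated replicate 2 far above the rest (edgeR adjusted p = 0.399).

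TR51492|c0_g1 was lower in mated females, with 0.0983, 0.0994 and 0.107 CPM, or 1 count a library, against 0.316, 1.31 and 0.408 CPM in virgin females, or 3, 12 and 4 counts (log2 fold change -2.44, SE 0.672, edgeR adjusted p = 0.035). The groups did not overlap, and virgin replicate 2 was more than 3 times as high as the other 2 virgin libraries. Without that library the log2 fold change was -1.58 and the call ended (adjusted p = 0.271). It also ended without any 1 mated library (0.0929 to 0.101), with limma-voom (0.258) and with the replicate number as a block (0.0639), 6 of the 15 alternatives that tested this gene.

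Of the 55 fitted changes in female abdomens 10 were positive. The median log2 fold change of the 55 genes was -0.66, against 0.00 over all genes tested, and was 0.00 without virgin female abdomen replicate 2. Over the 40 genes with more than 3 counts in each group the median was -0.50, and with 9 further genes placed at the bound that 3 counts allow it was -0.53. In the 296 other male-limited genes the median was 0.00, with 5 higher and 0 lower. In CPM, 2 of the 55 were higher and 6 lower in every mated than in every virgin library, where 40.7% of all genes tested did not overlap (10.2% higher and 30.5% lower). CPM lack the trimmed-mean scaling of the fit, without which the median log2 fold change of all genes tested in females was -0.11. The 2 higher genes were TR64737|c0_g2 and TR38092|c0_g1, which had 10, 6 and 8 counts in mated and 4, 2 and 1 counts in virgin females (log2 1.78, SE 0.935, edgeR adjusted p = 0.246). The rule capped the mean of female abdomens at A/16, so a gene that rose beyond it in mated females would have been left out.

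**Figure D5:**
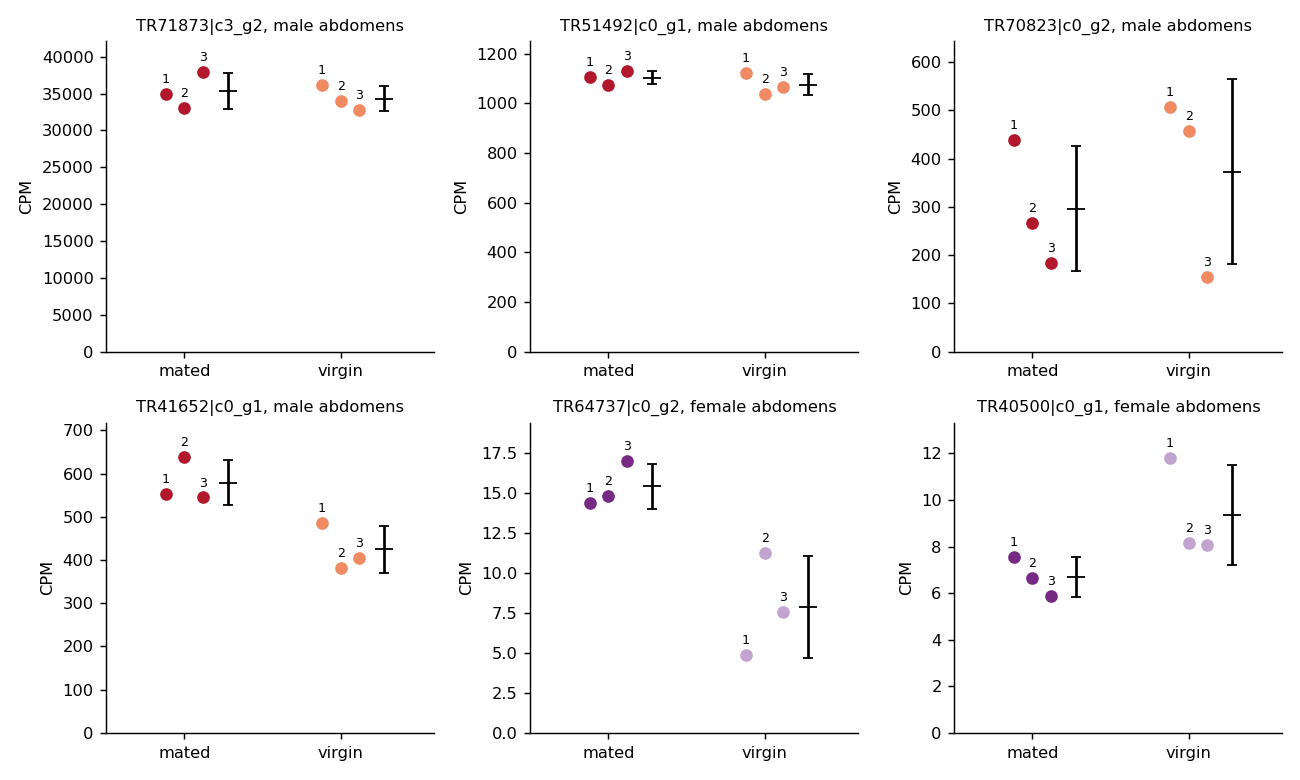
CPM by library (points, numbered by replicate; bars are mean ± SD, n = 3) of 6 of the genes in mated and virgin abdomens, the first 4 in males and the last 2 in females, with axes from 0. TR64737|c0_g2 is higher in all 3 mated than in all 3 virgin female abdomens, TR40500|c0_g1 is lower, and TR70823|c0_g2 is low in the male libraries numbered 3.

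Whether the abdomens of the sexes differed in the effect of mating was asked of an interaction term, the effect in females minus that in males. It called 0 of the 55 genes, where 8.28% of all genes tested were called (5.23% more positive and 3.06% more negative in females). The genes passed the low-count filter through their level in males, while the female part rests on few counts. The median gene had 27 counts over the 6 female abdomens. Calls among the 55 are therefore not a like comparison with the share of all genes here either. At an unadjusted p under 0.05, 7 passed, 1 more positive and 6 more negative in females, where 22.6% of all genes tested passed (14% more positive and 8.56% more negative). DESeq2 called 4 beside 14.9% of its genes, and limma-voom 0 beside 7.86%. The lowest adjusted p values were those of TR51492|c0_g1 (log2 -2.44, SE 0.681, edgeR adjusted p = 0.0516) and TR64737|c0_g2 (log2 0.97, SE 0.291, edgeR adjusted p = 0.068). The rise of TR64737|c0_g2 in mated females was therefore not shown to differ from its change in males, which was 0.12 (SE 0.171, edgeR adjusted p = 0.798).

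In female heads and thoraces 21 of the 55 genes passed the low-count filter, and 0 of these were called between mated and virgin beetles, where 0.935% of 13051 genes tested were (0.621% higher and 0.314% lower). At an unadjusted p under 0.05, 3 were higher and 0 lower, where 11.6% of all genes tested passed (5.82% higher and 5.78% lower). DESeq2 called 0 of the 11 to which it gave an adjusted p, beside 4.48% of its genes, and limma-voom 0 of 21, beside 0.95%. The median log2 fold change of the 21 was 1.21, and 0.11 without mated replicate 2. Among genes that did not pass the filter, 2 were seen in all 3 mated libraries and in no virgin one, and were picked out after their values were seen. The share of all genes with this pattern was not counted, so the 2 are given as examples only. TR74772|c0_g3 had 10, 12 and 6 counts in mated and 0, 0 and 0 in virgin libraries, at least 8.97-fold higher with a floor of 3 counts over the virgin group. TR54130|c0_g3 had 12.9, 9.20 and 7.54 estimated counts in mated and 0, 0 and 0 in virgin libraries, at least 9.51-fold higher. In a fit with no low-count filter neither passed (edgeR adjusted p = 0.458 and 0.287). In female abdomens TR74772|c0_g3 had 12, 10 and 8 counts in mated and 11, 15 and 18 counts in virgin libraries, which overlapped. TR54130|c0_g3 had 0 counts in all 3 mated female abdomens and 0, 11.5 and 0 counts in virgin ones. TR54130|c0_g1, an ID of the same component and not among the 55, stood at 242.6 CPM in female abdomens, and the split of reads between the IDs is uncertain.

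The transcript table was not used to choose the genes, and its listed transcripts did not account for all of their counts. For 23 of the 55 genes, 1 library or more had transcript counts that fell short of the gene's own by more than 0.5. TR71873|c3_g2 and TR42691|c2_g3, among the most abundant genes, had 27.8 and 13.8 transcript counts over the 6 male abdomens, beside 1867617 and 818775 gene counts, and in TR3726|c0_g1 and TR28238|c1_g4 the listed transcripts held under 12% of the gene counts. Transcripts are therefore described for the 48 genes whose listed transcripts held at least 95% of the gene counts in male abdomens, a limit set after the values were seen. The table listed 1 transcript for 24 of these and 2 to 20 for the other 24.

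In 21 of the 24 genes with several transcripts the same one was the most abundant in all 6 male abdomens. It held more than 95% of the gene's transcript counts in 6 genes and less than 50% in 4. TR20043|c1_g1 had the most transcripts, 20, yet TR20043|c1_g1_i20 held 99.6% to 99.7% of its counts in the male abdomen libraries. The evenest mixtures were in TR26271|c0_g6, where TR26271|c0_g6_i2 held 22.8% to 44.0% and led its 5 transcripts in 5 of 6 libraries, and in TR56166|c0_g1, where the leading of 11 held 31.4% to 42.2%. How estimated counts were divided among similar transcripts is not stated, so such shares carry an uncertainty of unknown size.

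The traces in female abdomens could be followed to transcripts in 17 of these genes, those with at least 10 transcript counts over the 6 female abdomens that held at least 90% of the gene counts there. In 5 of the 17 another transcript led than in males. In TR52424|c2_g1, the leading male transcript TR52424|c2_g1_i3 held 54.5% in males and had no count in female abdomens, where TR52424|c2_g1_i1 held 96.2% of 20 counts. In males TR52424|c2_g1_i3 led in only 4 of 6 libraries (44.5% to 67.1%), and TR52424|c2_g1_i1 held 29.2% to 51.9%. In TR38092|c0_g1, TR38092|c0_g1_i2 held 68.3% in males and had no count in female abdomens, where the listed transcripts held 28.1 of 31 gene counts. Its share ran from 46.3% to 98.7% over the male libraries, and it led in 5 of 6. In TR20043|c1_g1 the leading transcript was the same, but TR20043|c1_g1_i2 had 4.62 counts over male abdomens against 33.1 over female abdomens, the reverse of the gene as a whole. TR40500|c0_g1, the gene furthest above the common trace, kept its leading transcript, with 42.4% in males and 41.1% in females. These shares were not tested.

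The 55 genes came from 48 assembly components, as the part of the ID before the bar gives them, and 12 of the genes shared a component with another of the 55. All 4 genes of TR26271 were among them, at 1338 CPM (TR26271|c0_g5), 580 CPM (TR26271|c0_g6), 341 CPM (TR26271|c0_g2) and 223 CPM (TR26271|c0_g3) in male abdomens. Both genes of TR45884 were among them as well, at 2213 and 1010 CPM. In TR6663, the 2 genes with no count in female abdomens lay beside TR6663|c0_g4, which had 283 CPM in male abdomens but 1.08% of A in virgin male head and thorax replicate 1. IDs of a component may share reads, so the split between them is uncertain, and 22 of the 55 genes had such a partner that was not among the 55.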

How the data were processed

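The 24 libraries were each sequenced on 2 lanes. The tables were deposited as estimated counts of genes and of transcripts, which the authors made and did not normalise. Fractional values made up 14.1% of the gene counts. The tools named by the submitters' processing notes are Bowtie 0.12.6, Trimmomatic 0.3, cutadapt 1.2.1 and FastQC 0.11.2. No source used here gives the counting program, the reference or the use of strand, so values of near-identical or overlapping genes are uncertain.

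Levels are CPM, counts over the column total times 1000000, with no further scaling. Counts were rounded to whole numbers and tested with edgeR 4.0.16 in R 4.3.3: trimmed-mean (TMM) scaling, filterByExpr by group, robust quasi-likelihood fit with 1 mean per group, over the 12 libraries of a body part, and Benjamini-Hochberg adjustment over all genes tested. An SE is the absolute log2 fold change over the square root of F. The fits were also run on simulated counts with 200 changed genes per comparison. That simulation used the same dispersion for every gene, so it does not represent single libraries with extra traces. DESeq2 1.42.0, limma-voom 3.58.1, other scalings, filters, sample sets and limits were tried as alternatives.

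Genes were named by a rule: the 5 most abundant, those called (up to 4 in each direction), those next to each limit, the 3 highest in each kind of female library, the 2 most and 2 least variable, and the 2 with the least dominant transcript. Others are named as picked after their values were seen or as examples of a count. The genes, the lists and the rule were chosen with earlier results of these data known.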

Additional observations from a re-analysis of the deposited data

How the results depend on the processing

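Counts of called genes among the 55 moved as follows. Among the alternatives, shares of all genes called are given above for DESeq2 and limma-voom alone. The counts under the other settings have no such share beside them, so a move in them is not a result about these genes. In male abdomens the 0 calls became 1 with library size only, 6 with DESeq2, 5 with limma-voom, 1 in the fit of the 6 libraries compared and 2 of 351 with the limit on virgin male head and thorax replicate 1 dropped, and were 0 to 1 with each library left out. In female abdomens the 2 calls became 10 with DESeq2, 1 each with limma-voom, in the fit of all 24 libraries and in that of the 6 compared (15 genes tested), and 7 of 351 with that limit dropped, and were 1 to 3 with each library left out. The interaction's 0 calls became 1 with library size only, 4 with DESeq2, 1 with all 24 libraries and 2 with the limit dropped, and were 0 to 1 with each library left out. In female heads and thoraces all 24 libraries gave 1 call, and the count was 0 with each library left out. The number of genes was 51 to 56 under 4 other settings of the rule and 351 without the limit on that library. Median log2 fold changes with it dropped were -0.19 in male abdomens, -0.010 in female abdomens and 0.020 in the interaction. With each library left out they ran from -0.0031 to 0.12, from -0.85 to 0.00 and from -0.98 to -0.057. The causes were not tested. With the replicate number as a block, female abdomens had 1 call, and the block changed no other count. Same-numbered libraries did not deviate together (correlations -0.04 to 0.03 over genes), so the numbers were not used as pairs. Depth limits every value outside male abdomens: 34 of the 55 genes had under 40 counts over the 6 female abdomens.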
